A study of Homo sapiens with 24 samples.

Results

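What 10 nM 17β-estradiol does to gene expression in SUM190PT cells was examined in 6 of the 24 arrays of this series, 3 from estradiol-treated and 3 from vehicle-treated cells. The arrays were chosen by the treatment and line given in their labels. SUM190PT is a human inflammatory breast cancer line that the labels describe as ER(-), meaning that it lacks the estrogen receptor, with a mutant p53 (Q317X). All SUM190PT groups were plated in medium with 2% serum, held without serum for 24 h and treated for 48 h in serum-free Ham's F-12 with insulin, hydrocortisone, transferrin, T3, ethanolamine, selenite and albumin. The vehicle was ethanol and DMSO. A second set of 6 SUM190PT arrays measured the same estradiol dose on top of 5 µM CG-1521, a histone deacetylase inhibitor, against CG-1521 alone. A further 6 arrays measured estradiol against vehicle for 48 h in SUM149PT, an inflammatory breast cancer line also given as ER(-), with p53 M237I, in medium with 5% serum. Per the series text the replicates are independent experiments, and each line is a single established culture.

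Estradiol acts mainly through the nuclear receptors ERα (ESR1) and ERβ (ESR2), which bind DNA at estrogen response elements and switch on genes such as PGR, TFF1 and GREB1 in hormone-responsive breast cancer cells. The membrane receptor GPER1 binds estradiol too and signals through cyclic AMP and the MAP kinases without direct contact with DNA. A line without ERα is therefore used to ask what estradiol still does. ERBB2, the receptor tyrosine kinase HER2 known to be amplified in SUM190PT, stood at a log2 level of 12.59 ± 0.154 (SD, n = 3) in SUM190PT vehicle cells and at 7.18 on average in SUM149PT vehicle cells.

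Estradiol was followed by shifts in many genes that were small and, for nearly all of them, not separable from the spread between arrays by the test without pairing. KRCC1, a gene of little known function, rose 1.82-fold. AGR3, UGT2B7, UGT2B28 and GPR160 were among the genes with large differences upward, and BBC3, KLF2, GPER1 and GAS1 were among those with lower values after estradiol. The textbook targets PGR, TFF1 and GREB1 passed neither the test without nor the test with pairing.

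Of 18417 genes, 1 was higher (0.00543%) and 0 were lower (0.0%) at an adjusted p under 0.05 (limma over the 12 SUM190PT arrays, Benjamini-Hochberg, two-sided). At an unadjusted p under 0.05 there were 1872 higher genes (10.2%) and 2659 lower genes (14.4%), and at an adjusted p under 0.1 there were 691 (3.75%) and 1008 (5.47%). Estradiol and vehicle arrays with the same replicate number deviated together from their group means, with correlations of 0.443, 0.229 and 0.729 for pairs 1 to 3. Vehicle arrays 1 and 2 correlated slightly more with an estradiol array of another number (0.447 and 0.278), so only pair 3 was set apart by its number. With the replicate number as a block, its effect shared by all groups, 256 genes passed as higher (1.39%) and 263 as lower (1.43%) over the 12 arrays. With the block and the 6 estradiol and vehicle arrays alone, 1133 genes passed as higher (6.15%) and 880 as lower (4.78%), together 2013 (10.9%). This last fit is called the blocked test below, and the fit over 12 arrays without block the unblocked test. An exact permutation test of 3 arrays against 3 without pairing cannot give a p below 0.1. Within 3 pairs the arrangements are fewer and that floor is higher, so single genes rest on limma's pooled spread.

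The differences depended on how bright a gene was. With the genes ordered by mean level and cut into 10 groups of equal size, the median log2 difference, estradiol minus vehicle, was -0.06 in group 1 (the dimmest), -0.20 in group 4 and 0.13 in group 10 (the brightest). All 3 pairs had this shape, the first least and the second most. The SD of the log2 values over all genes was 2.06, 1.98 and 1.98 in the vehicle arrays and 2.11, 2.12 and 2.08 in the estradiol arrays. When the 24 arrays were given the same distribution by a further quantile normalization, the blocked test called 430 genes higher (2.33%) and 171 lower (0.928%), and 558 of the 2013 genes called before passed again, with 0 changing sign. The part of this spread difference in single genes was not tested.

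**Figure D1:**
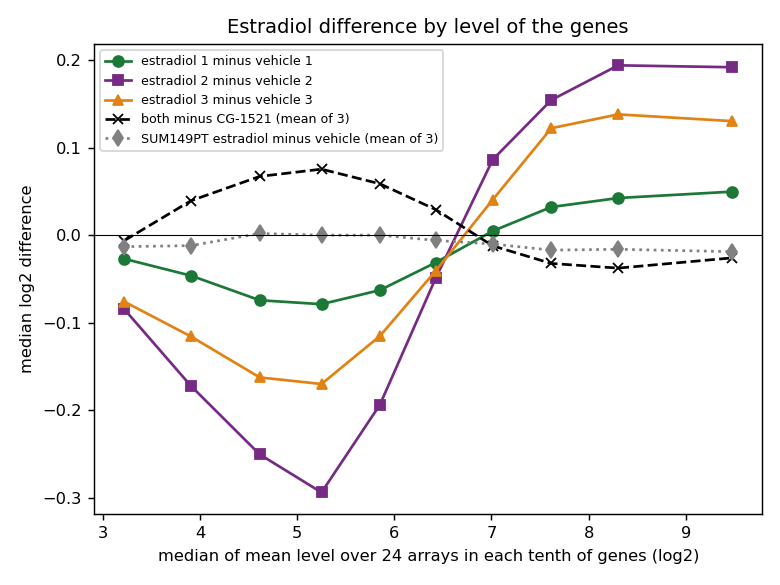
Median log2 difference in each of 10 equal groups of the 18417 genes, ordered by mean level over the 24 arrays (x axis, log2). Coloured lines are the 3 SUM190PT estradiol minus vehicle pairs, the dashed line is the combination minus CG-1521 and the dotted line SUM149PT estradiol minus vehicle, both means of 3 arrays a group. Dim genes lie below 0 and bright genes above 0 in all 3 pairs, while SUM149PT stays near 0.

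Vehicle array 1 lay nearest to the estradiol arrays, and the first pair gave the smallest differences. Without it 974 genes passed as higher and 1287 as lower in the unblocked test, and without any other one of the 6 arrays 0 passed in either direction. With the block and only pairs 2 and 3 the counts were 2179 and 2023, with pairs 1 and 2 they were 262 and 132, and with pairs 1 and 3 they were 0 and 0. The third vehicle array and the third estradiol array were low in proliferation genes: the median DNA replication gene lay 1.61 and 1.68 log2 units below the other arrays of its group. Without both of them the unblocked test called 0 genes.

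KRCC1, which encodes a lysine-rich coiled-coil protein, read 6.36, 6.20 and 6.40 (log2) in vehicle arrays 1 to 3 and 7.18, 7.21 and 7.15 in estradiol arrays 1 to 3. The groups were far apart relative to their spread, 6.32 ± 0.104 against 7.18 ± 0.0303 (SD, n = 3 each). The difference was 0.86 with an SE of 0.0978, an adjusted p of 0.0155 in the unblocked test and 0.0223 in the blocked test. The call ended when any single one of the 6 arrays other than vehicle 1 was left out, with adjusted p from 0.0531 to 0.179, while the difference stayed between 0.81 and 0.90. KRCC1 also missed the threshold when the spread was taken from the 6 arrays without block (adjusted p = 0.151).

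KLF2, a Krüppel-like transcription factor known for its role in endothelial quiescence, read 7.77, 7.88 and 7.85 in vehicle arrays and 7.08, 7.05 and 6.99 in estradiol arrays. Every estradiol array was below every vehicle array. KLF2 fell by 0.79 (SE 0.107) in the blocked test, with an adjusted p of 0.0223 there and 0.0541 in the unblocked test. GPER1 read 5.43, 5.57 and 5.60 with vehicle and 5.08, 4.88 and 4.93 with estradiol, so the receptor's own transcript was lower in all 3 estradiol arrays. The difference was -0.57 (SE 0.116), with an adjusted p of 0.0269 in the blocked test and 0.0541 in the unblocked test. In the blocked test after the further quantile normalization the adjusted p was 0.0551. GPER1 lay at level percentile 38.8, and group 4 of gene level, which holds it, had a median difference of -0.20. The part of gene level in the lower GPER1 values was not tested.

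AGR3, a secreted protein disulfide isomerase of the anterior gradient family whose relative AGR2 marks luminal breast cells, read 6.52, 5.37 and 5.51 with vehicle and 7.16, 7.12 and 7.20 with estradiol. The estradiol arrays agreed closely, and the spread lay in the vehicle arrays, the first being 1 log2 unit or more above the others. AGR3 rose by 1.36 (SE 0.192), or 2.56-fold, in the blocked test with an adjusted p of 0.0223, against 0.0552 in the unblocked test.

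The 250 bases upstream of the RefSeq transcription start (GRCh38.p14) are shown for AGR3, KRCC1 and GPER1, because they are a large rise with groups that stand apart, the single unblocked call and the receptor that fell in the blocked test. Capitals mark the half-sites of the estrogen response element, GGTCA or its reverse complement TGACC, found on either strand. AGR3 lies on the minus strand at chr7:16881984-16882233, KRCC1 on the minus strand at chr2:88055784-88056033 and GPER1 on the plus strand at chr7:1086868-1087117, each printed 5′ to 3′ along its gene.
AGR3: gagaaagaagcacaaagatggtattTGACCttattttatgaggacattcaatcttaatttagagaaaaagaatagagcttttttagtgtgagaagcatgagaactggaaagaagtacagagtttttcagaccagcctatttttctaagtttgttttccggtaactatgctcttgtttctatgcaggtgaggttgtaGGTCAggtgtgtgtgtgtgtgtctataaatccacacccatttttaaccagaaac
KRCC1: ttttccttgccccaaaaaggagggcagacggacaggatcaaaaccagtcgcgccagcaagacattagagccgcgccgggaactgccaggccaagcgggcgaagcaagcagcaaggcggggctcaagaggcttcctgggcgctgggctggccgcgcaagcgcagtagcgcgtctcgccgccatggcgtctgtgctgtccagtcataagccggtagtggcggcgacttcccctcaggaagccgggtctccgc
GPER1: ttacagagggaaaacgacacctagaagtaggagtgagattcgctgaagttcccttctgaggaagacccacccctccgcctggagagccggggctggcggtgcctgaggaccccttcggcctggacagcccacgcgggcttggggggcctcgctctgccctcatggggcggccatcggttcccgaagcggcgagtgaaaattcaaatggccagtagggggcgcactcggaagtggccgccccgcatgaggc
AGR3 holds 2 half-sites, which start at -225 and -54 from the transcription start, and KRCC1 and GPER1 hold 0 in this window. The full palindrome, GGTCA and TGACC with any 3 bases between them, which contains both half-sites, occurred in 14 of the 35116 RefSeq promoter windows of this length (0.0399%) and a half-site in 32.6%. Of the tested genes 14239 (77.3%) had such a window, and 30.8% of these windows held a half-site. A half-site was present in 277 of the 907 windows of genes called higher in the blocked test (30.5%) and in 187 of the 623 of genes called lower, and 0 windows of either set held the full palindrome. A match in these letters is a description and no measure of binding.

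**Figure D2:**
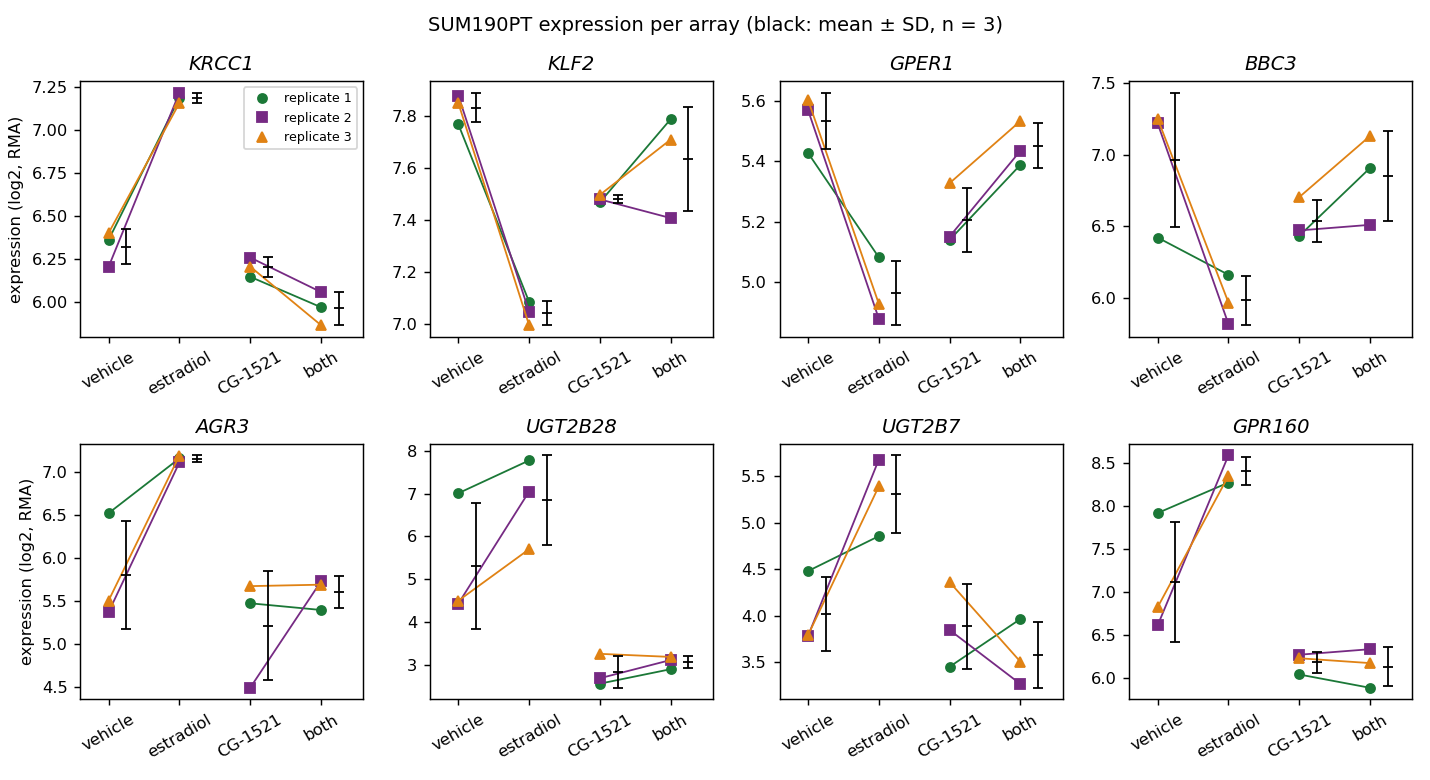
Log2 expression of 8 genes in each of the 12 SUM190PT arrays, by treatment, with lines joining arrays of the same replicate number and black bars for the mean ± SD (n = 3). KRCC1 lay above 7.1 in all 3 estradiol arrays and at 6.40 or below in all vehicle arrays, and the first vehicle array lay nearest to its estradiol partner in AGR3, UGT2B7 and GPR160.

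With small RNA genes, uncharacterised loci and a few repetitive families such as olfactory receptors and keratin-associated proteins left aside, the 12 largest rises among genes higher in all 3 pairs (4780 genes, 26.0%, were so) ran from 0.95 to 1.53. All 12 passed the blocked test, with adjusted p from 0.0223 to 0.0407, and 9 had groups that did not overlap, where 11.6% of all genes were higher without overlap. The genes were picked by size and pair direction in the same 6 arrays, which favours both outcomes, so these counts describe them and are no separate support. UGT2B28, an enzyme that attaches glucuronic acid to androgens and estrogens, read 7.01, 4.42 and 4.49 with vehicle and 7.78, 7.05 and 5.70 with estradiol, a mean difference of 1.53 (adjusted p = 0.0238 blocked, 0.149 unblocked). The groups overlapped because vehicle array 1 was high. UGT2B7, a related enzyme that conjugates estradiol and its metabolites, read 4.48, 3.78 and 3.79 with vehicle and 4.86, 5.68 and 5.39 with estradiol, a difference of 1.29 (adjusted p = 0.024 blocked, 0.0541 unblocked). The sequences of the UGT2B family are close to each other, and how far their probe sets share signal was not tested.

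GPR160, an orphan G protein-coupled receptor, read 7.92, 6.61 and 6.82 with vehicle and 8.27, 8.59 and 8.35 with estradiol. It rose by 1.28 in the blocked test (adjusted p = 0.0241 blocked, 0.0541 unblocked), without overlap of the groups. MEST, an imprinted gene of the α/β-hydrolase family, differed by 1.29 (adjusted p = 0.0407 blocked, 0.147 unblocked), but the third vehicle array alone, at 6.30 against 8.87 and 8.28, carried most of it. The call for MEST ended after the further quantile normalization (adjusted p = 0.0838), as did that for ZNF675 (0.0529), a zinc finger gene with a difference of 1.03.

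The remaining largest rises were the bitter taste receptor TAS2R31 (1.10), the histone gene H2BC7 (1.08), the actin-binding POF1B (1.05), SERHL2 (0.96), the meiotic gene SYCP2 (0.96) and DTWD1 (0.95). POF1B read 6.24, 5.32 and 5.88 with vehicle and 6.94, 7.02 and 6.62 with estradiol, so that the groups stood apart. SERHL2 showed the opposite layout, with 6.78, 5.58 and 7.98 against 7.50, 6.49 and 9.25, where every pair rose but the experiments differed by more than the treatment. TAS2R31 belongs to a family of near-identical receptors, and its value is uncertain for that reason.

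The blocked test ranks genes by the size of the difference relative to the spread of the pairs, with that spread partly pooled over genes. Its 10 strongest rises, all with an adjusted p of 0.0223 and differences from 0.79 to 0.96, were OTUD4, RPL22, TFPI, KRCC1, ECHDC1, GPR141, POGLUT1, DLEU2, ZNF138 and SERHL2. TFPI, the inhibitor of the tissue factor pathway of coagulation, rose by 0.87 from 6.11, 6.25 and 6.47 to 6.98, 7.10 and 7.37. OTUD4, a deubiquitinase, rose by 0.92 from 7.08, 6.59 and 6.70 to 7.80, 7.84 and 7.48. RPL22, a ribosomal protein of the large subunit, rose by 0.88 from 6.04, 6.03 and 5.95 to 6.82, 6.78 and 7.04. In these 3 genes no estradiol array reached down to the vehicle arrays. Of the 10 rises 6 had groups that did not overlap, beside 11.6% of all genes higher without overlap. Ranking by the blocked test favours such a layout. A second probe set for ZNF138 differed by 0.02 only, so the rise of that gene depends on the probe set.

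With the same classes left aside, the 12 largest falls among genes lower in all 3 pairs (5548 genes, 30.1%) ran from -0.81 to -1.14. All 12 passed the blocked test, with adjusted p from 0.0223 to 0.0355, and 11 had groups that did not overlap, where 16.7% of all genes were lower without overlap. As for the rises, the way these genes were picked favours both outcomes, and the counts are no separate support. BBC3, which encodes the p53-induced death protein PUMA, read 6.42, 7.22 and 7.25 with vehicle and 6.16, 5.82 and 5.97 with estradiol. It fell by 0.98 in the blocked test (adjusted p = 0.0254 blocked, 0.0541 unblocked), and pair 1 again moved least. KBTBD11, a BTB-kelch protein, fell by 0.88 in the blocked test, from 5.41, 6.07 and 5.97 to 4.93, 4.91 and 4.98. PCDHA13, a clustered protocadherin, fell by 0.94 in the blocked test, from 6.81, 7.27 and 7.61 to 6.22, 6.32 and 6.33.

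IFNL2, a type III interferon, fell by 0.85 in the blocked test, from 5.36, 5.91 and 5.69 to 4.73, 4.65 and 5.03. GRAP, an adaptor of the GRB2 family, differed by -1.05, but vehicle array 2 at 5.46 stood against 3.84 and 4.05 in the other two, and its call ended after the further quantile normalization (adjusted p = 0.0629). The others were IGLON5 (-0.93), CFAP77 (-0.85), SHISA7 (-0.84) and the pseudogenes POU5F1P3 (-1.14), DNM1P46 (-1.03), CELP (-0.83) and PYY2 (-0.81). Pseudogenes share sequence with their parent genes and are uncertain. The other probe sets of DNM1P46 differed by -0.22 and -0.17 and that of SHISA7 by -0.29.

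Genes with the strongest blocked falls included MXRA8, UCN2, C2CD4A, SLC14A2, ZNF575, ZDHHC11 and ARHGAP23, besides KLF2, DNM1P46 and PCDHA13. UCN2, the stress peptide urocortin 2, fell by 0.76 from 5.80, 6.21 and 6.37 to 5.19, 5.46 and 5.46. SLC14A2, a urea transporter, fell by 0.71 from 4.58, 4.61 and 4.72 to 3.81, 3.89 and 4.09. C2CD4A fell by 0.70 from 8.04, 8.09 and 8.16 to 7.31, 7.46 and 7.41. All 10, picked by their rank in the blocked test, had an adjusted p of 0.0223 there and groups that did not overlap. Of all genes 16.7% were lower without overlap. The pick favours both outcomes, so they are no separate support. A second probe set of ARHGAP23 differed by -0.01.

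The receptors for estradiol came first among the gene lists. ESR1 read 4.54, 4.84 and 4.72 with vehicle and 4.35, 4.85 and 4.55 with estradiol, a difference of -0.12 with an SE of 0.136 (adjusted p = 0.622 in the unblocked test). ESR2 differed by 0.08 and the progesterone receptor PGR by -0.17, neither of them past the spread between arrays. The glucocorticoid receptor NR3C1 differed by 0.30 (adjusted p = 0.0889 blocked). Of 9 receptors measured, GPER1 passed the blocked test as lower and 0 as higher. Among 14 coregulators and pioneer factors, the corepressor NRIP1 passed as higher, from 8.71, 8.77 and 8.30 to 9.08, 9.08 and 8.86 (difference 0.41, adjusted p = 0.0435). NRIP1 missed the threshold after the further quantile normalization (adjusted p = 0.135). The coactivator NCOA2 differed by 0.37 without passing.

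Of 43 measured genes known to be induced by estrogen, 5 passed the blocked test as higher and 1 as lower, 13 were higher and 16 lower in all 3 pairs, and the median difference was -0.07, beside -0.04 for all genes. Of all genes 6.15% and 4.78% passed as higher and lower, and 26.0% and 30.1% were higher and lower in all 3 pairs. These shares are the background for every list below. They take no account of gene level, on which the differences depended. The classical targets TFF1 (-0.17), GREB1 (-0.13), CCND1 (-0.12), MYC (0.17), CXCL12 (-0.18) and IGFBP4 (-0.26) did not pass either test. TFF1, a secreted trefoil peptide, read 5.25, 6.11 and 5.43 with vehicle and 5.37, 5.42 and 5.49 with estradiol. Its negative difference rested on vehicle array 2, and without that array it was 0.085. FHL2 (0.35) had an adjusted p of 0.0567 in the blocked test.

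IL17RB, a receptor for interleukin 25, read 7.93, 6.87 and 6.10 with vehicle and 8.40, 8.30 and 7.02 with estradiol, and rose by 0.94 in the blocked test (adjusted p = 0.0234 blocked, 0.196 unblocked). It was higher in each pair, while the experiments differed by more than the treatment. SERPINA3, a secreted protease inhibitor, rose by 0.55 in the blocked test, RERG, a Ras-like growth inhibitor, by 0.55, MYBL1 by 0.47 and MYB, a transcription factor of luminal breast cancer, by 0.40. Without vehicle array 3 the difference of MYBL1 was -0.14. BCL2, the survival factor, fell by 0.42 in the blocked test, from 4.99, 5.27 and 4.83 to 4.64, 4.74 and 4.44 (adjusted p = 0.0394). After the further quantile normalization 1 of the 43 genes passed, IL17RB. With the block over all 12 arrays 0 passed.

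**Figure D3:**
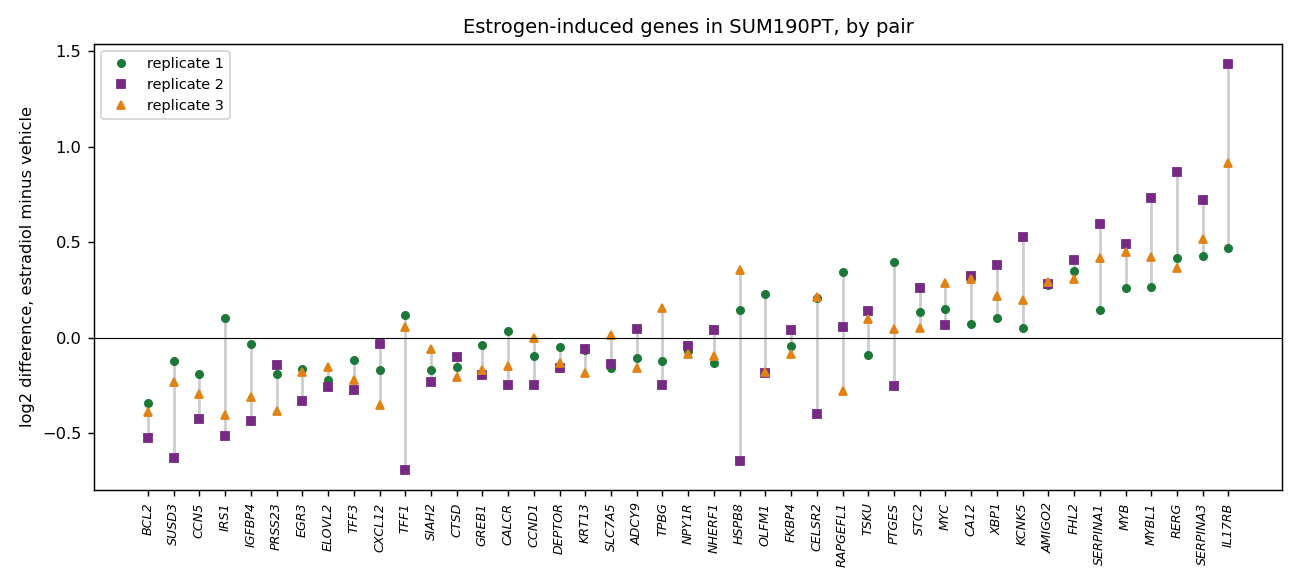
Log2 difference, estradiol minus vehicle, for each estrogen-induced gene measured in SUM190PT, ordered by mean difference, with 1 point for each of the 3 pairs and a grey line over their range. IL17RB, SERPINA3, RERG, MYBL1 and MYB lie above 0 in all 3 pairs and BCL2 below 0, while the 3 points of TFF1 lie on both sides of 0.

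Of 10 estrogen-repressed genes 0 passed the blocked test in either direction. BIK, a death protein, differed by -0.34, BMF by -0.24 and CCNG2, a cyclin linked to growth arrest, by 0.03. Among 19 genes of estrogen synthesis and metabolism 3 passed as higher: UGT2B7, SULT1E1 and HSD17B4. SULT1E1, the sulfotransferase that inactivates estradiol, read 5.54, 5.42 and 6.29 with vehicle and 6.28, 6.15 and 6.96 with estradiol. It rose by 0.71 in the blocked test (adjusted p = 0.0223), while in the unblocked test its adjusted p was 0.418. HSD17B4, a peroxisomal enzyme that can oxidise estradiol, rose by 0.53 in the blocked test, and its call ended after the further quantile normalization (adjusted p = 0.0597). CYP1B1 and CYP1A2, which hydroxylate estradiol, differed by 0.08 and -0.40 without passing.

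Rapid signalling itself was not measured, as all arrays were taken after 48 h of treatment. At that time 1 of 23 immediate early and MAP kinase feedback genes passed the blocked test. This was the feedback inhibitor SPRY2, which rose by 0.49 from 5.21, 5.11 and 5.35 to 5.54, 5.88 and 5.71. ETV4, a transcription factor downstream of the MAP kinases, differed by 0.38 (adjusted p = 0.0554 blocked). Of 13 androgen and glucocorticoid response genes, PIP, a secreted apocrine protein, rose by 0.46 in the blocked test, from 11.92, 11.71 and 11.77 to 12.19, 12.31 and 12.26, and its call ended after the further quantile normalization (adjusted p = 0.0683). KLK3 (-0.30) and APOD (0.23) did not pass.

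Of 34 mitotic genes measured, 9 passed as higher and 0 as lower, 22 were higher and 1 lower in all 3 pairs, and the median difference was 0.23. Of all genes 6.15% passed as higher, 26.0% were higher and 30.1% lower in all 3 pairs. The list median was -0.19 without vehicle array 3, -0.0070 without estradiol array 1 and 0.65 without estradiol array 3. In none of them were the groups apart. CENPE, a kinetochore motor, read 6.28, 5.49 and 4.63 with vehicle and 6.62, 6.50 and 5.29 with estradiol. The checkpoint gene MAD2L1 rose by 0.67, the spindle motor KIF11 by 0.65, the mitotic kinases CDK1, TTK and AURKA by 0.63, 0.63 and 0.57, NUF2 by 0.55, NDC80 by 0.48 and ANLN by 0.42, all in the blocked test. Without vehicle array 3 the difference of ANLN was -0.11. Array 3 of both groups, low in mitotic genes by 1.27 and 1.35 log2 units against the others of its group, entered every one of these values. With pairs 2 and 3 alone 14 passed as higher, with pairs 1 and 2 alone 1, and with pairs 1 and 3 alone 0. After the further quantile normalization 4 passed as higher and 1 as lower with a median of 0.11, and with the block over 12 arrays 0 passed.

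DNA replication genes gave 1 call among 34, the polymerase subunit POLE2 (0.59). The S phase cyclin CCNE2 differed by 0.51 (adjusted p = 0.0648 blocked), and MKI67, the proliferation marker, differed by 0.10 (adjusted p = 0.52 blocked). Of 13 growth arrest genes 3 passed as lower and 0 as higher. GAS1, a membrane protein of arrested cells, read 5.74, 6.18 and 6.02 with vehicle and 5.52, 5.27 and 5.28 with estradiol and fell by 0.62 in the blocked test (adjusted p = 0.0311 blocked, 0.0541 unblocked). The cyclin-dependent kinase inhibitors CDKN1C and CDKN2D fell by 0.50 and 0.44 in the blocked test. After the further quantile normalization CDKN2D passed and GAS1 (adjusted p = 0.0631) and CDKN1C (0.0509) did not.

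Secretory products had a list median of 0.24 over 14 genes, and AGR3 and SCGB2A2 passed the blocked test. SCGB2A2, the mammary secretoglobin mammaglobin A, read 11.44, 11.01 and 11.99 with vehicle and 12.02, 12.14 and 12.47 with estradiol, and rose by 0.73 in the blocked test (adjusted p = 0.0243 blocked, 0.134 unblocked). AGR2 differed by 0.34 (adjusted p = 0.0822 blocked). The list median was 0.10, 0.42 and 0.24 in pairs 1 to 3, 0.062 without estradiol array 3, and 0.11 after the further quantile normalization, where 2 genes passed.

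In cholesterol synthesis and uptake SC5D and MSMO1, which act late in sterol synthesis, rose by 0.60 and 0.50 in the blocked test among 17 genes, and in fatty acid synthesis THRSP, a regulator of lipogenesis, rose by 0.49 among 12. The elongase ELOVL5 differed by 0.25 without passing. None of the 3 that rose passed after the further quantile normalization. Of 20 genes of the unfolded protein response 1 passed, EDEM1 (0.42), whose call ended after the further quantile normalization (adjusted p = 0.0764). Of the 20, 14 were higher and 3 lower in all 3 pairs, with a list median of 0.14. Their median level percentile was 92.0, and group 10 of gene level had a median of 0.13. After the further quantile normalization the list median was 0.015. DNAJC3, an inhibitor of stress kinases, differed by 0.37. Glycolysis and heat shock genes gave 0 calls among 19 and 12, with PDK1 at 0.24, PGK1 at 0.15, HSP90AA1 at 0.22 and HSPA8 at 0.16.

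Of 22 interferon-stimulated genes IFIH1, an RNA sensor, and IFI44 each rose by 0.56 in the blocked test, and IRF7, the regulator of interferon production, fell by 0.55. IRF7 read 6.39, 6.79 and 6.94 with vehicle and 6.21, 6.04 and 6.23 with estradiol. Of 18 NF-kB and chemokine genes 1 passed, the neutrophil attractant CXCL2, which rose by 0.74 from 5.67, 5.67 and 6.00 to 6.57, 6.80 and 6.16. Its neighbour in function CXCL3 differed by -0.33 without passing. After the further quantile normalization IFI44 passed, while CXCL2 (adjusted p = 0.0509), IFIH1 (0.0537) and IRF7 (0.0584) did not.

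**Figure D4:**
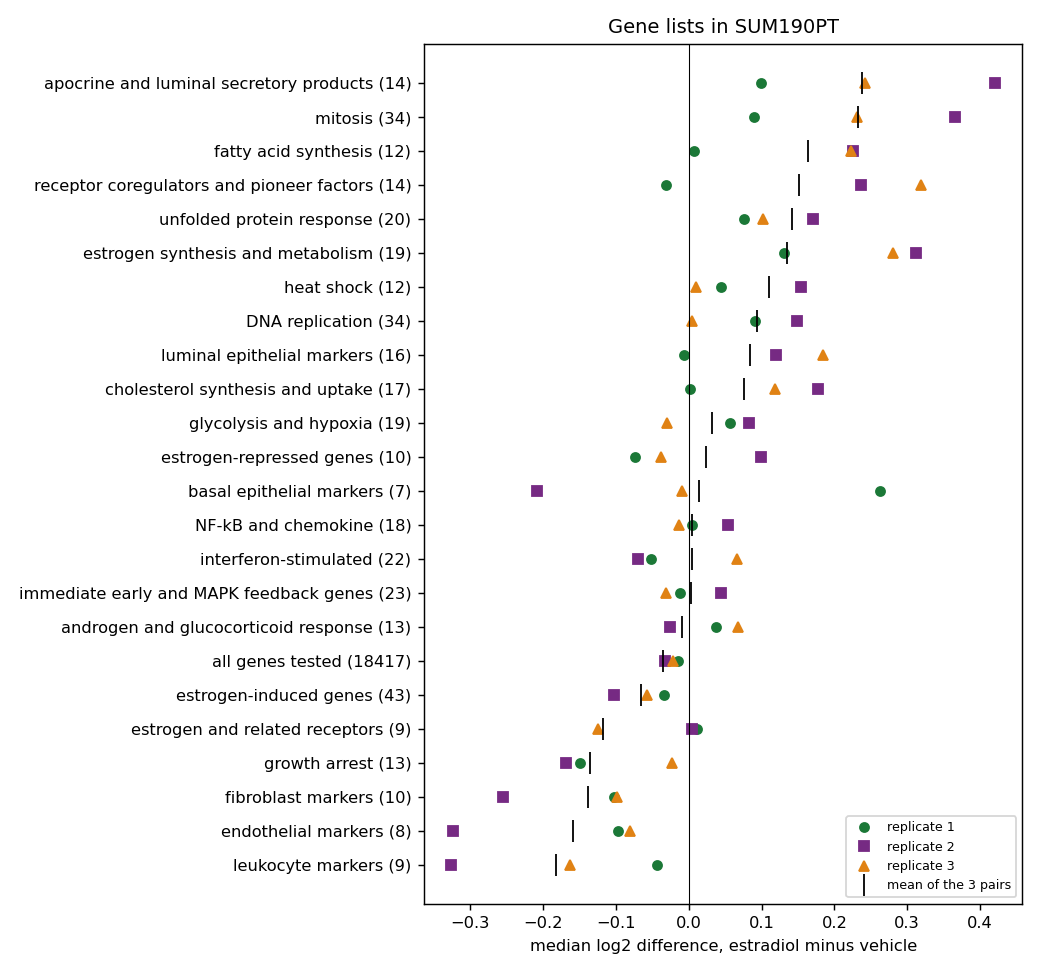
Median log2 difference, estradiol minus vehicle, of each gene list in each of the 3 SUM190PT pairs (points) and of the mean over the pairs (bars), with the number of measured genes in brackets. Secretory and mitosis genes have medians of 0.24 and 0.23 and leukocyte markers one of -0.18 on the deposited values, and the second pair is the most extreme for most lists.

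Of the 23 list medians 16 were above 0 and 7 below, and 8 changed sign after the further quantile normalization. In the unblocked test 0 members of any list passed, and KRCC1, its only call, is in no list. Luminal markers gave 0 blocked calls among 16 genes, with EPCAM at 0.46 (adjusted p = 0.0531 blocked) on the probe set used and -0.06 on another. Basal markers gave 1 among 7, ANXA1 (0.47), whose call ended after the further quantile normalization (adjusted p = 0.0772), while the basal keratin KRT14 differed by -0.32. Markers of fibroblasts and leukocytes gave 0 calls among 10 and 9, with medians of -0.14 and -0.18. Their median level percentiles were 31.1 and 21.0, and the groups of gene level there, 4 and 3, had medians of -0.20 and -0.16. COL1A2 and THY1 differed by -0.29 and -0.29, CD14 by -0.39 and CD3D by -0.29. Of 8 endothelial markers PECAM1 rose by 0.67 in the blocked test, while CDH5 and TIE1, which also mark endothelium, differed by -0.30 and -0.32 without passing.

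Whether the estradiol effect was the same in the presence of CG-1521 was tested as the difference of both effects. In 95 of 18417 genes (0.516%) the difference passed (limma over 12 arrays, without block). In all 95 the effects without and with CG-1521 had opposite signs. Selection by the difference of both effects favours opposite signs, so this count is no separate support. Estradiol added to CG-1521 called 0 genes on its own (0.0%), with 889 at an unadjusted p under 0.05. The sign of the effect with CG-1521 is therefore not settled for single genes. Arrays of CG-1521 and of the combination with the same replicate number deviated together as well. With the block over the 12 arrays 0 of these differences passed (limma, with 4551 genes at an unadjusted p under 0.05). That block takes 1 replicate effect shared by all groups, although vehicle and CG-1521 arrays of the same number correlated by only -0.010, 0.101 and 0.055. It therefore cannot decide how many differences would pass with each estradiol pair matched separately. Without block, leaving out 1 of the 12 arrays gave 0 to 4 differences that passed, apart from 1655 without vehicle array 1.

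KRCC1 differed by 0.86 without CG-1521 and by -0.24 with it, a change of effect of -1.10 (adjusted p = 0.0416). KLF2 differed by -0.79 and 0.15 (change 0.95), GPER1 by -0.57 and 0.25 (0.82), RPL22 by 0.88 and -0.38 (-1.25), KBTBD11 by -0.88 and 0.31 (1.19) and the kinase inhibitor CDKN2D by -0.44 and 0.36 (0.80), each with an adjusted p of 0.0476 for the change. Of the 12 largest rises named above 10 had a difference below 0 with CG-1521 and of the 12 largest falls 9 had one above 0. The share of all genes with opposite signs was not counted, so these numbers show no trait particular to the named genes. Over all 18417 genes the effects without and with CG-1521, which share no array, correlated with a Pearson r of -0.467 and a Spearman rho of -0.473. Genes are not independent replicates, and the groups of gene level moved in opposite directions too, with medians of 0.08 in group 4 and -0.03 in group 10 with CG-1521. The part of gene level in this correlation was not tested.

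**Figure D5:**
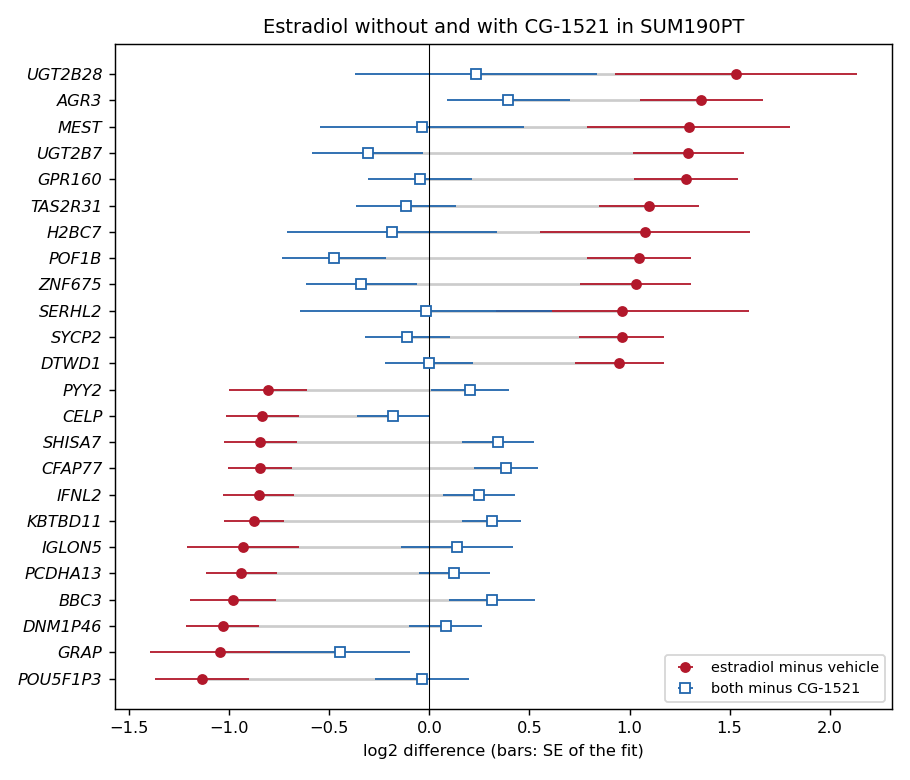
Log2 difference with the SE of the limma fit for the named 12 largest rises and 12 largest falls of estradiol against vehicle, small RNA, uncharacterised, olfactory and keratin-associated genes left aside, without CG-1521 (red circles) and with it (blue squares). Differences with CG-1521 run from -0.48 (POF1B) to 0.39 (AGR3), on the other side of 0 for 10 of the rises and 9 of the falls. The share of all genes with opposite signs was not counted.

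In SUM149PT estradiol called 0 genes (0.0%), with 340 at an unadjusted p under 0.05, and the difference of the estradiol effect between SUM190PT and SUM149PT passed in 321 genes (1.74%), 152 of them higher and 169 lower in SUM190PT (limma over 24 arrays). With the replicate number as a block within each line 575 passed. Without SUM190PT vehicle array 3 and estradiol array 3, 2 passed, and without single arrays the count ran from 0 to 2239, the last without SUM190PT vehicle array 1. AGR3 differed by 1.36 in SUM190PT and by -0.08 in SUM149PT, a difference between lines of 1.43 (adjusted p = 0.0427). For KRCC1 it was 1.01 (adjusted p = 0.0315), for UGT2B7 1.33 (0.045), for KLF2 -0.91 (0.0315), for GPER1 -0.74 (0.0358) and for BBC3 -1.12 (0.041). The lines were grown in different media, so line and serum cannot be told apart.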

How the data were processed

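Column-purified RNA passed a Bioanalyzer check and a NuGEN pico amplification, per the labels' protocols, before hybridisation to Affymetrix Human Gene 1.0 ST arrays. The deposited values are log2 expression made by the authors with RMA in Affymetrix Expression Console, per the submitters' processing notes, versions not given in the sources used here. Arrays carry no counts, so their number limits the precision.

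Of 33297 probe sets 19460 had 1 gene symbol in the annotation, 1754 several and 12083 no entry; the brightest probe set stood for each of 769 genes with several, which gave 18417 genes. Among these 19460, 19429 matched RefSeq. No intensity filter was applied. Tests used limma 3.58.1, run in R 4.3.3 (moderated linear models, Benjamini-Hochberg over all genes), without block over the 12 arrays of the line, and with the replicate number as a block. The check of the pairing was the correlation across genes of deviations from the group means, 0.443, 0.229 and 0.729 for pairs 1 to 3. Vehicle arrays 1 and 2 correlated slightly more with an estradiol array of another number (0.447 and 0.278). For CG-1521 against the combination the same-number correlation was 0.518, 0.434 and 0.502. Between vehicle and CG-1521 it was -0.010, 0.101 and 0.055, and between vehicle and the combination -0.125, -0.059 and 0.058.

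The members and the 23 gene lists (424 genes, 389 analysed here) were chosen with earlier results of these data known. Named genes were those that passed, the 12 largest rises and falls with 3 pairs of one sign, the 10 strongest each way in the blocked fit (LOC, open reading frame, FAM, KIAA, LINC, antisense, small RNA, olfactory receptor and keratin-associated symbols skipped in both), up to 4 per list that passed (otherwise the 2 smallest p) and a fixed set of estrogen genes; further list members with a blocked call were named after their values were seen. Alternatives were other array sets, quantile normalization, median centring, removal of the dimmest 50% of genes, mean of probe sets, array weights, a variance trend and single arrays left out. The fits were checked on simulated data. Tables and figures were made with Python 3.11.15, pandas 2.3.3, numpy 2.4.6 and matplotlib 3.10.9.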

Additional observations from a re-analysis of the deposited data

Results flagged for a closer look

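The effect of estradiol in SUM190PT differed with and without CG-1521 by a test of the difference in 95 genes, 0 of which passed with a replicate block shared by all 12 arrays. Among the genes named above the change of effect (with minus without, log2) was -1.10 for KRCC1, 0.95 for KLF2, 0.82 for GPER1, -1.25 for RPL22, 1.19 for KBTBD11, 1.23 for CFAP77, 0.97 for ARHGAP23 and 0.80 for CDKN2D.

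Between the lines 321 genes differed in their estradiol effect. The difference, SUM190PT minus SUM149PT, was above 0 for KRCC1 (1.01), AGR3 (1.43), UGT2B7 (1.33), POF1B (1.22), SYCP2 (1.11) and OTUD4 (1.05). It was below 0 for KLF2 (-0.91), GPER1 (-0.74), BBC3 (-1.12), PCDHA13 (-0.96), KBTBD11 (-0.95), IFNL2 (-1.28), CFAP77 (-1.01), SHISA7 (-0.94), POU5F1P3 (-1.21), ZNF575 (-0.95), ARHGAP23 (-0.81), SLC14A2 (-0.73) and UCN2 (-0.89).

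Probe sets that name no single gene stayed outside the comparisons. When all 33297 probe sets were tested together without block, 379 of these 13837 passed, 264 higher and 115 lower after estradiol. Over all 33297 probe sets the same fit called 367 higher and 282 lower. The 379 belong beside these counts and not beside the 1 call among 18417 genes, which came from another set of tests. The transcripts of the probe sets that name no single gene are not identified here.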

How the results depend on the processing

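The counts of called genes moved with nearly every choice. Genes called higher and lower were 1 and 0 without block, 256 and 263 with the replicate block over 12 arrays, 1133 and 880 with it over 6, 1509 and 560 when the dimmest 50% was also left out, and 430 and 171 after quantile normalization. With the replicate block they were 2179 and 2023 for pairs 2 and 3, 262 and 132 for pairs 1 and 2, and 0 and 0 for pairs 1 and 3. Without block they were 0 and 0 for the 6 arrays alone or without the third pair, 1359 and 1631 with 24 arrays in the fit, 3 and 1 after quantile normalization, 1300 and 1779 with array weights, 1 and 1 without the dimmest 50%, 367 and 282 over all probe sets, and 691 and 1008 at an adjusted p under 0.1. Leaving out 1 array gave 0 to 974 higher and 0 to 1287 lower.

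The 95 differences with against without CG-1521 became 0 with the replicate block shared by all 12 arrays, 1 without the third pair and 0 to 1655 without 1 array. The 321 differences between lines became 575 with the block, 2 without the third pair and 0 to 2239 without 1 array.

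Genes whose sign turned had small differences, apart from MYBL1 and ANLN, which had passed the blocked test as higher. After quantile normalization (with or without block) ESR1 was 0.031, CYP1B1 -0.043, CCNG2 -0.11, ERBB2 -0.067, MKI67 -0.023 and HSPA8 -0.12. Pairs 1 and 3 alone gave TFF1 0.088, CYP1B1 -0.036 and CCNG2 -0.098, and pairs 1 and 2, or leaving out the third pair, gave CYP1B1 -0.044. Without 1 array TFF1 ran from -0.34 to 0.085, CYP1B1 from -0.16 to 0.30, CCNG2 from -0.089 to 0.14, MKI67 from -0.41 to 0.60, MYBL1 from -0.14 to 1.11 and ANLN from -0.11 to 0.94. The cause was not tested for any of these. The fits for single pairs, for the block with other steps and for all probe sets, and the looser threshold, were chosen after seeing the data.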

Other observations

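Small nucleolar RNAs, which guide the modification of ribosomal RNA, had a median difference of 0.20 over 175 probe sets with a gene name. In the blocked test 40 were higher and 2 lower, and 79 were higher and 18 lower in all 3 pairs. Over all genes 6.15% were higher and 4.78% lower in the blocked test, and 26.0% and 30.1% in all 3 pairs. Of 634 long noncoding RNAs 13 were higher and 60 lower in the blocked test, with a median of -0.15. Of 173 microRNA genes 4 were higher and 13 lower, with a median of -0.09. The median level percentile was 34.0 for small nucleolar RNAs, 24.9 for long noncoding RNAs and 13.2 for microRNA genes. The groups of gene level there, 4, 3 and 2, had median differences of -0.20, -0.16 and -0.12. In group 3 the blocked test called 144 of 1841 genes lower and in group 2 it called 42 of 1842. The part of gene level in the class values was not tested. After the further quantile normalization the blocked test called 32 small nucleolar RNAs higher and 1 lower, 11 long noncoding RNAs each way and 3 microRNA genes each way.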
